A study of Danio rerio with 4 samples.

Results

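The 7 genes described here are mrc1a, stab1, stab2, lyve1b, dab2, plvapb and prox1a, a set associated with veins, lymphatics and scavenger endothelium. They were taken by symbol from the 25432 genes of the count matrices, and all 7 were present. The data are single-cell RNA profiles of dissected zebrafish trunks at 3 days post-fertilization (dpf), made with a droplet method that counts transcript 3′ ends with unique molecular identifiers (UMIs). There were 4 libraries, 2 from flt1ka604 mutants and 2 from wild type (WT) embryos. The flt1ka604 allele carries a small deletion with a premature stop codon in flt1, which encodes the decoy Vegf receptor that limits Vegf signalling, and the tissue, age and untreated state were shared by both genotypes. The number of embryos behind a library and whether the libraries came from separate clutches are not given in the sources used here, so that p-values measure only the spread between these libraries. The comparisons ask in which trunk cells the 7 genes were found, how they were combined within endothelial cells and whether they differed between flt1ka604 and WT.

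As background, scavenger endothelial cells clear large molecules from the blood and take the place that liver sinusoidal endothelium has in mammals, and in zebrafish embryos they lie mainly in the veins of the trunk and tail. Their receptors bind waste polymers, clathrin-coated pits bring the cargo in, and lysosomes break it down. Several of the same receptors also mark lymphatic endothelium, which arises from veins under control of the transcription factor Prox1.

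Of 32486 barcodes, 19611 cells passed the filters on genes and mitochondrial share, and retained cells of a library summed to between 35781471 and 61822943 UMIs. The median depth was 5037.5 and 779 UMIs per cell in flt1ka604 and 8033 and 3760 in WT, lowest in flt1ka604 replicate 2. An unnamed cluster of shallow cells (median 585 UMIs) held 1131 of 4312 and 2515 of 5569 retained cells in flt1ka604. In WT it held 307 of 3042 and 2180 of 6688. Libraries shared between 2 and 10 barcodes per pair. Clustering, from which the 7 genes were left out, gave 27 clusters, and 18 of them could be named from marker genes. Endothelial-like cells, 1 cluster of 157 cells, comprised 31 and 53 cells in flt1ka604 and 20 and 53 in WT, at a median of 5532 and 6749 UMIs in flt1ka604 and 5294.5 and 7726 in WT. The cluster was named from its 12 endothelial markers. The most frequent were cdh5, found in 79.6% of these cells, etv2 in 75.8% and kdrl in 75.2%, and the least frequent she in 50.3% and erg in 7.64%. Levels are given as CPM, the UMIs of a gene per 1000000 UMIs of the same cells. Of 14 macrophage markers, 10 were at 0 UMIs and the others summed to between 2.13 and 15.8 CPM per library. The 8 neutrophil markers summed to 1174 and 911 CPM in flt1ka604 and 1267 and 728 CPM in WT. The 12 endothelial markers summed to 7031 and 6140 CPM in flt1ka604 and 7386 and 6115 CPM in WT, and 8 fast muscle markers to 8047 and 8265 CPM in flt1ka604 and 4617 and 8411 CPM in WT. flt1 itself averaged 203 ± 48.7 CPM in endothelial-like cells of flt1ka604 and 212 ± 1.24 in WT (SD, n = 2 each), and a 3′ count does not check a small deletion in the coding region.

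The 7 genes fell into 3 patterns across the trunk. The receptors mrc1a, lyve1b, stab1 and stab2, together with plvapb, were found mainly in endothelial-like cells. Of the UMIs of lyve1b, a hyaluronan receptor, 94.8% lay in these 157 cells, and the share was 94.4% for mrc1a, the mannose receptor, 93.1% for plvapb, which builds the diaphragms of endothelial vesicles and fenestrae, and 82.7% for stab2, a stabilin receptor for hyaluronan and other polyanions. stab1, the second stabilin, had 74.7% of its UMIs there. By library the stab2 share was 78.0% and 73.4% in flt1ka604 and 94.1% and 83.7% in WT. That of stab1 was 69.7% and 75.7% in flt1ka604 and 64.1% and 82.1% in WT. dab2, the clathrin adaptor that links cargo receptors to coated pits, was split, with 49.7% in endothelial-like cells. prox1a was the exception, with 3.31%.

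**Figure D1:**
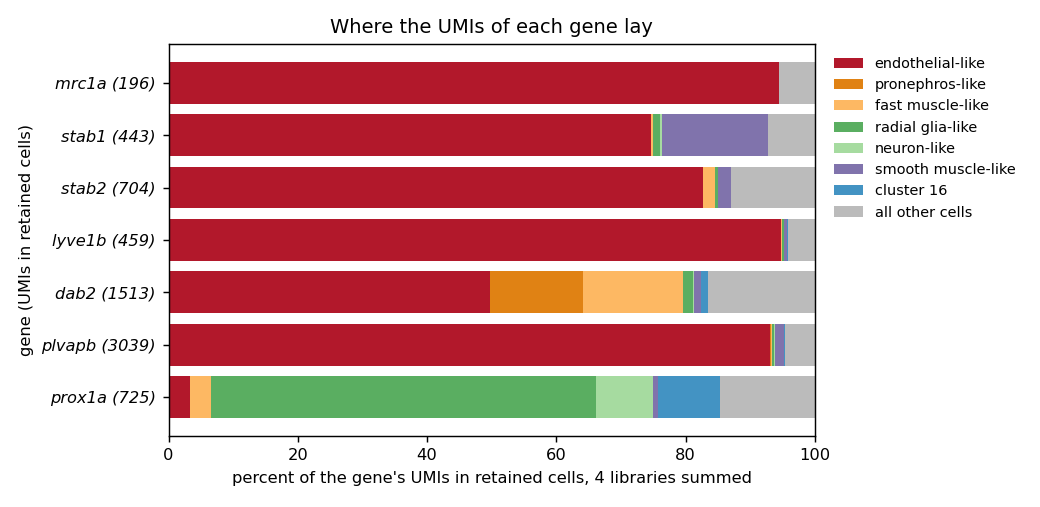
Percent of each gene's UMIs by cell class (x axis), for the 7 genes (y axis, with the UMIs counted in retained cells of all 4 libraries). Endothelial-like cells held 94.8% of the lyve1b UMIs, 49.7% of the dab2 UMIs and 3.31% of the prox1a UMIs.

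Against all other named cells of the same libraries, all 7 genes were higher in endothelial-like cells, where 35.7% of 15750 genes tested differed and 10.2% were higher (edgeR quasi-likelihood test on UMI sums per library, Benjamini-Hochberg adjusted p under 0.05). The other named cells were pooled by UMIs, so classes with many UMIs weigh most. A gene can thus exceed this pool and not a single class, as prox1a did, at 16.5 CPM beside 59.3 CPM in radial glia-like cells. The log2 fold was 10.57 ± 0.28 (SE) for lyve1b, 10.52 ± 0.25 for plvapb, 10.06 ± 0.35 for mrc1a, 8.91 ± 0.25 for stab2, 7.53 ± 0.24 for stab1 and 6.15 ± 0.21 for dab2. The folds of lyve1b, plvapb and mrc1a differed by less than the sum of their SEs and changed order between alternatives, whereas dab2 had the lowest of these 6 folds under every alternative run. prox1a differed by 1.23 ± 0.44 with an adjusted p of 0.0186 in the same edgeR test, and this call rested on flt1ka604 replicate 2, since its log2 fold was -0.04 without that library. Scaling mattered for the size of these values. When each library was scaled by its total instead of by TMM, the median log2 fold of all genes was 1.15 higher, genes called higher made up 76.8% of all calls against 28.6% with TMM, and prox1a stood at 2.35.

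**Figure D2:**
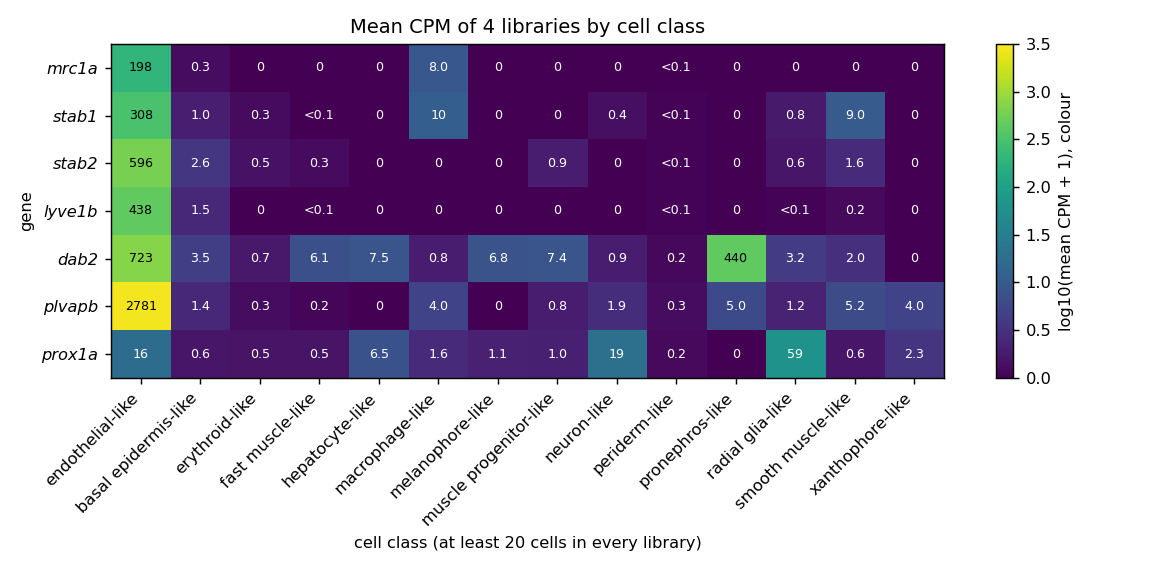
Mean CPM over 4 libraries for each gene (rows) in the 14 cell classes with at least 20 cells in every library (columns); the colour is log10(CPM + 1). The endothelial-like column is the highest for every gene but prox1a, and dab2 has a second high class, pronephros-like cells at 440 CPM.

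The 4 receptors were ordered in endothelial-like cells, by the mean of 4 libraries, as stab2 at 596 ± 341 CPM, lyve1b at 438 ± 172, stab1 at 308 ± 98.2 and mrc1a at 198 ± 141 (SD, n = 4). In flt1ka604 alone lyve1b averaged 424 ± 205 CPM and stab2 409 ± 159, whereas in WT stab2 averaged 784 ± 428 and lyve1b 452 ± 214 (SD, n = 2 each), and in both orders the neighbours lay within their spread. Their counts come from transcript ends, so levels of different genes are per UMI and not per length. Outside endothelium the receptors differed in where their few UMIs lay. For mrc1a the next class was macrophage-like cells at 7.99 ± 7.58 CPM, with 7 UMIs in 5 of 123 cells, and the step down from endothelial-like cells was a log2 fold of 4.4 ± 0.60 (adjusted p = 1.54e-06, edgeR, with 27.5% of genes called in that contrast). The paralogue mrc1b had the other balance, with 100 UMIs in endothelial-like cells and 201 in macrophage-like cells. For stab1, macrophage-like cells at 10.2 ± 12.4 CPM and smooth muscle-like cells at 9.04 ± 3.35 CPM came next and did not differ from each other (log2 fold 0.14 ± 0.61, adjusted p = 0.882, edgeR, with 41.1% of genes called), and without flt1ka604 replicate 1 the log2 fold was -1.01. The 73 stab1 UMIs of smooth muscle-like cells were spread over 47 of 891 cells with at most 6 in a cell. Of those 47 cells, 23.4% also held 3 or more UMIs of pan-endothelial markers, compared with 6.87% of the smooth muscle-like cells without stab1. These cells were neither thinned nor matched for depth, and the part of such cells in the stab1 level was not tested.

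Outside endothelium stab2 had 122 UMIs in 90 retained cells and lyve1b 24 in 15. In the next 2 named classes single cells held most of the stab2 counts. All 16 stab2 UMIs of 636 basal epidermis-like cells lay in 1 cell of 24145 UMIs, which also held all 9 lyve1b UMIs of that class, 13 dab2 UMIs and 13 UMIs of pan-endothelial markers. Likewise 10 of the 14 stab2 UMIs of smooth muscle-like cells lay in 1 cell. An unnamed cluster of 654 cells led by hpdb had a higher stab2 level than both, at 4.24 ± 3.38 CPM (SD, n = 4). Its 16 UMIs lay in 16 cells, at 7.28 and 7.03 CPM in flt1ka604 and 1.15 and 1.49 CPM in WT. No genotype test was run in unnamed clusters. Erythroid-like cells, which should lack these genes, were taken as a guide to free RNA, though what their UMIs come from was not tested. With every cell thinned to 2000 UMIs, 0 of 1629 erythroid-like cells had a UMI of mrc1a, stab1 or lyve1b, 1 had stab2, and 2 each had plvapb and dab2, at a median unthinned depth of 16824.5 UMIs. Thinning cells of that depth also discards most of any free RNA in them, so these thinned counts cannot measure free RNA per cell. Thinned endothelial-like cells held plvapb in 88 of 112 cells, dab2 in 52, lyve1b in 37, stab2 in 33, stab1 in 31 and mrc1a in 20, with 45 shallower cells left out. Unthinned, the shares in endothelial-like cells were 70.1% for plvapb, 44.6% for dab2, 35.0% for stab1, 33.1% for lyve1b, 31.2% for stab2 and 26.1% for mrc1a. Of 1630 unthinned erythroid-like cells, 18 had a UMI of dab2, 11 of stab2, 9 of plvapb, 7 of stab1 and 0 of mrc1a or lyve1b.

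dab2 was also high in pronephros-like cells. In the pronephros, the embryonic kidney, it is known to work beside the endocytic receptors of the proximal tubule. The name rests on 4 of 9 markers detected and higher, in shallow cells (median 783.5 UMIs). Pronephros-like cells averaged 440 ± 146 CPM of dab2, in comparison with 723 ± 284 CPM in endothelial-like cells (SD, n = 4). The endothelial-like level was higher by a log2 fold of 0.84 ± 0.24 (adjusted p = 0.00564, edgeR, with 32.8% of genes called), which was no longer called without flt1ka604 replicate 2 (0.51) or without WT replicate 2 (0.80). The library values of pronephros-like cells were 537 and 283 CPM in flt1ka604 and 588 and 350 CPM in WT, each from between 40 and 64 UMIs. Within the 388 pronephros-like cells, dab2 marked a subset: 99 cells had a UMI, and 54 of these also had slc20a1a, a phosphate transporter of the proximal tubule, in comparison with 35 of 289 cells without dab2. Depth differed between the groups (median 1595 and 698 UMIs), but the contrast was also present among cells over 1000 UMIs, with slc20a1a in 44 of 74 dab2 cells and 13 of 66 others. The megalin gene lrp2a followed, in 17 of 74 dab2 cells and 3 of 66 others. In the same cells cdh17, found along the whole pronephros, was in 39 of 74 and 33 of 66. mrc1a, stab1, stab2 and lyve1b had 0 UMIs in pronephros-like cells of all 4 libraries, which hold between 95178 and 168548 UMIs each and so show only levels well above 1 UMI in that number.

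After pronephros-like cells the named class with the most dab2 was iridophore-like, pigment cells at 29.2 ± 14.2 CPM from 23 UMIs in 16 of 97 cells, which had under 20 cells in 1 library and so was not in the test of neighbouring classes. Fast muscle-like cells held 234 UMIs in 134 of 466 cells, yet these are the deepest cells of the data, at a median of 81838.5 UMIs, and their level was 6.07 ± 1.33 CPM. Among the classes with at least 20 cells in every library, the one after pronephros-like cells by mean CPM was hepatocyte-like at 7.5 ± 8.80 CPM from only 2 UMIs. It did not differ from muscle progenitor-like cells at 7.37 ± 2.97 CPM (edgeR adjusted p = 0.930, with 29.9% of genes called).

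prox1a lay mainly in neural cells in these libraries. Radial glia-like cells, which are neural stem and progenitor cells, held 432 of its 725 UMIs, in 168 of 1077 cells. Their level was 37.9 and 55.4 CPM in flt1ka604 and 79.0 and 65.2 CPM in WT, values that did not overlap, as was so for 22% of the 9343 genes tested in these cells in the same direction. Among named classes neuron-like cells followed at 18.8 ± 4.25 CPM, lower than radial glia-like cells by a log2 fold of 1.65 ± 0.33 (adjusted p = 3.96e-05, edgeR, with 49.6% of genes called in that contrast). Endothelial-like cells came next at 16.5 ± 19.4 CPM and could not be separated from neuron-like cells (adjusted p = 0.907, edgeR, with 54.1% of genes called). An unnamed cluster of 214 cells led by cldnh and agr2 held a further 70 UMIs in 34 cells, at 34.5 ± 16.6 CPM, between the levels of radial glia-like cells (59.3 ± 17.3) and neuron-like cells (SD, n = 4).

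Subclustering of the 157 endothelial-like cells, again without the 7 genes, gave 3 subclusters. The first, of 57 cells, was led by aqp8a.1, esm1 and cxcr4a and was arterial-like by its markers. The second, of 53 cells, was led by lyve1a, apoeb, cldn11a and lgmn. It had 6 of 7 venous markers higher than the other subclusters, but a radial glia marker, glula, stood among its 10 leading genes and no venous marker did, so it was left unnamed and is called lyve1a-led here. The third, of 47 shallow cells (median 729 UMIs), was led by muscle genes such as pgam2. In these cells fast muscle markers summed to 61440 CPM and endothelial markers to 3316 CPM, and cdh5 was found in 34% and kdrl in 27.7% of them. Because the subclusters were found in the same cells, their levels are descriptions without a test.

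Scavenger receptors and dab2 were concentrated in the lyve1a-led cells. These numbered 9 and 15 in flt1ka604 and 11 and 18 in WT. Arterial-like cells numbered 11 and 17 in flt1ka604 and 3 and 26 in WT, so the arterial-like values of WT replicate 1 rest on 3 cells. stab2 stood at 1693 and 763 CPM in lyve1a-led cells of flt1ka604 and at 1545 and 1169 CPM in those of WT, whereas arterial-like cells had 0 and 39.4 CPM in flt1ka604 and 59.5 and 57.2 CPM in WT. Summed over libraries, the ratio of lyve1a-led over arterial-like CPM was 29.2 for stab2, 24.3 for lyve1b, 23.2 for stab1, 18.6 for mrc1a and 14.9 for dab2, and all 5 genes were higher in lyve1a-led cells in 4 of 4 libraries. For comparison, the ratio was 35.3 for lyve1a and 36.1 for lgmn, a lysosomal protease, which both lead the subcluster. plvapb did not follow. It had 2924 and 1789 CPM in lyve1a-led cells of flt1ka604 and 3025 and 2794 CPM in those of WT, in comparison with 2889 and 1453 CPM in flt1ka604 and 8711 and 2219 CPM in WT for arterial-like cells, and its ratio was 1.06. prox1a had a ratio of 0.62 on 7 and 16 UMIs. Among cells thinned to 2000 UMIs, a UMI of dab2 was found in 45 of 52 lyve1a-led cells and 6 of 57 arterial-like cells. For stab2 these were 30 of 52 and 3 of 57 cells. The muscle-led cells held too few UMIs for a comparison, with at most 9 of any of the 7 genes but plvapb, which had 43.

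**Figure D3:**
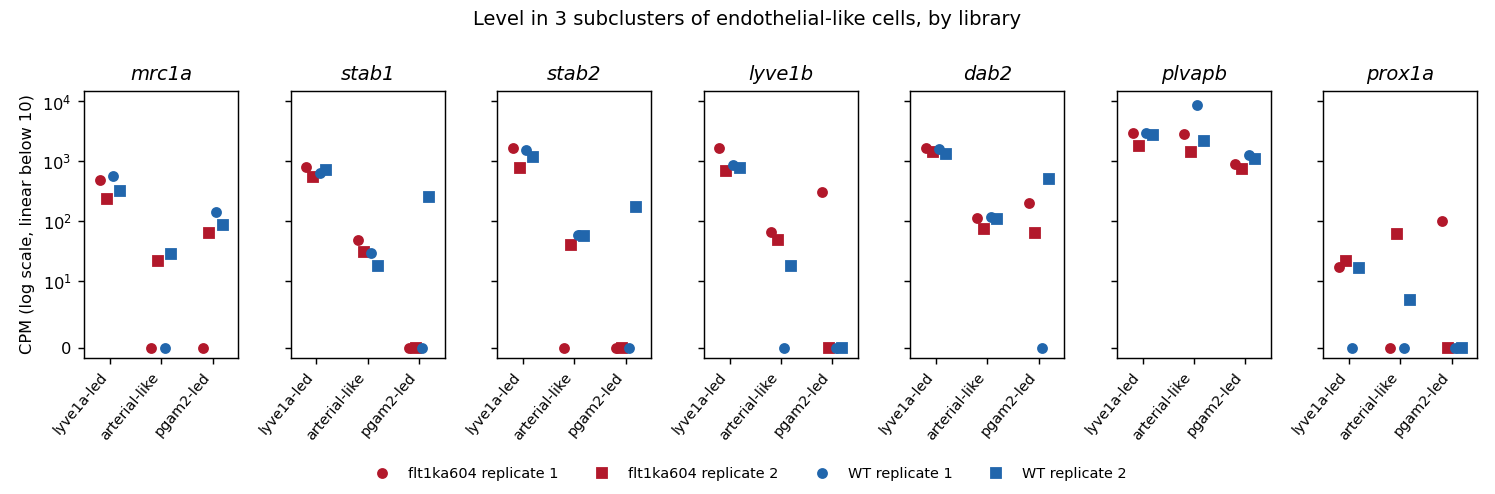
CPM of each gene (y axis, log scale, linear below 10) in the 3 subclusters of endothelial-like cells (x axis), with 1 point per library. mrc1a, stab1, stab2, lyve1b and dab2 are higher in lyve1a-led than in arterial-like cells in 4 of 4 libraries, and plvapb is so in 3 of 4. The arterial-like points of WT replicate 1 rest on 3 cells.

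The 5 genes were found in the same cells. Of the 53 lyve1a-led cells, 29 had a UMI of all 5 and 42 of at least 3, compared with 2 and 8 of the 57 arterial-like cells. Thinned to 2000 UMIs, all 20 endothelial-like cells with mrc1a also had stab2, compared with 13 of 92 cells without mrc1a. This was so in each library, with 3 of 3 and 5 of 5 cells in flt1ka604 and 5 of 5 and 7 of 7 in WT. dab2 was found in 36 of 37 cells with lyve1b and in 16 of 75 without it. lyve1b was found in 29 of 33 cells with stab2 and in 8 of 79 without it. Over the 20 ordered pairs of the 5 genes, the median share of cells with the second gene was 67.1% where the first was found and 13.1% where it was not, and 79.2% and 9.99% without thinning. Across all 157 cells, the correlation of log2 normalised counts was highest for lyve1b with dab2 (r = 0.85) and stab1 with stab2 (r = 0.84), while plvapb reached at most 0.41 with any of the others (stab2). In the 53 lyve1a-led cells alone plvapb reached 0.66 with lyve1b, 0.64 with stab2, 0.60 with stab1, 0.51 with dab2 and 0.49 with mrc1a, where pairs of the 5 genes lay between 0.56 and 0.86. The cells share libraries and depth, and these values are descriptions.

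prox1a-positive endothelial-like cells were rare, 9 of 157, which held 24 UMIs. Of these UMIs, 13 lay in a single arterial-like cell of flt1ka604 replicate 2 with 21355 UMIs. That cell also held 17 UMIs of flt4, the receptor of lymphatic growth factor Vegfc, along with 5 of stab2, 8 of dab2 and 1 each of plvapb and cdh5. An arterial-like cell of WT replicate 2 was alike in this, with 2 UMIs of prox1a, 17 of flt4, 8 of dab2 and none of plvapb or cdh5. Clustering placed both among the arterial-like cells, while flt4 is known as a gene of veins and lymphatics. With every cell thinned to 2000 UMIs only 1 of 112 retained a prox1a UMI, so that at this depth the number of prox1a-expressing cells is not measurable.

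No member of the set differed between flt1ka604 and WT in endothelial-like cells by the test across all genes. Of the 6 that could be tested 0 were called, where 0.0858% of 3497 genes were (3 genes, with 263 at an unadjusted p under 0.05). Mean CPM was lower in flt1ka604 for each gene tested, but the libraries of both genotypes overlapped for all of them except stab1. mrc1a had 147 and 99.8 CPM in flt1ka604 and 407 and 138 CPM in WT. stab2 had 521 and 297 CPM in flt1ka604 and 1086 and 481 CPM in WT. For both genes WT replicate 1 stood far above the other 3 libraries, and the genotypes overlapped. The log2 fold was -1.03 ± 0.46 for mrc1a (adjusted p = 0.652, edgeR) and -0.91 ± 0.39 for stab2 (adjusted p = 0.649, edgeR).

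stab1 was the only member whose libraries did not overlap, with 279 and 213 CPM in flt1ka604 and 445 and 294 CPM in WT, and its log2 fold was -0.56 ± 0.30 (adjusted p = 0.729, edgeR). Of the 3497 genes tested, 18.4% lay lower in both flt1ka604 libraries than in both WT libraries. plvapb had 2797 and 1544 CPM in flt1ka604 and 4376 and 2409 CPM in WT (log2 fold -0.64 ± 0.32). dab2 had 606 and 554 CPM in flt1ka604 and 1147 and 584 CPM in WT (-0.54 ± 0.32). lyve1b had 569 and 278 CPM in flt1ka604 and 604 and 300 CPM in WT (-0.06 ± 0.39), and its log2 fold was -0.59 without flt1ka604 replicate 1, 0.34 without flt1ka604 replicate 2 and 0.39 without WT replicate 1. prox1a was below the count filter, with 2 and 17 UMIs in flt1ka604 and 0 and 5 in WT. The median log2 fold of the 6 genes was -0.60, beside -0.00053 over all genes tested.

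**Figure D4:**
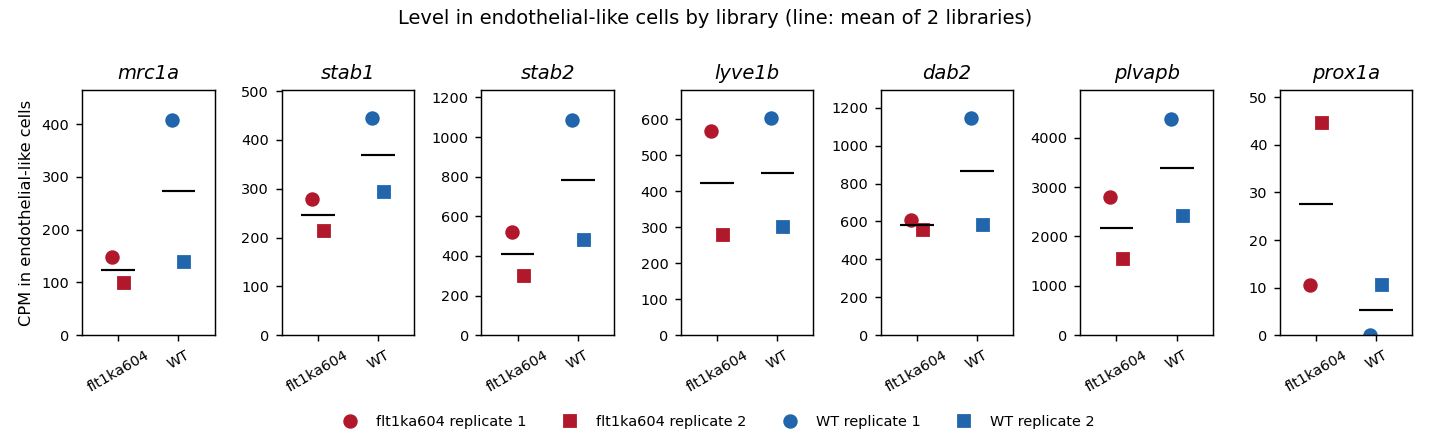
CPM in endothelial-like cells (y axis, from 0) for each gene, flt1ka604 and WT libraries as points and the mean of 2 libraries as a line. WT replicate 1 is the highest library for every gene but prox1a, at 407 CPM of mrc1a and 1086 CPM of stab2.

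The make-up of the endothelial-like cells also differed between libraries. lyve1a-led cells were 29.0% (95% Clopper-Pearson interval 14.2 to 48.0) and 28.3% (16.8 to 42.3) of endothelial-like cells in flt1ka604, compared with 55.0% (31.5 to 76.9) and 34% (21.5 to 48.3) in WT, where the intervals cover counting error only. Within lyve1a-led cells alone, an alternative chosen after seeing the data, the log2 fold was -0.34 for mrc1a, -0.16 for stab2, -0.03 for stab1, -0.30 for plvapb, 0.10 for dab2 and 0.51 for lyve1b. There 0 of the 6 genes and 0 of 1666 genes were called by edgeR, with 128 at an unadjusted p under 0.05. Without WT replicate 1 the folds of mrc1a and stab2 in all endothelial-like cells were also smaller, at -0.27 and -0.33. That of lyve1b turned positive instead, at 0.39. Arterial-like cells were 35.5% and 32.1% of endothelial-like cells in flt1ka604 and 15% and 49.1% in WT. The muscle-led cells were 35.5% and 39.6% of endothelial-like cells in flt1ka604 and 30% and 17.0% in WT. Periderm markers summed to 1569 and 3162 CPM in endothelial-like cells of flt1ka604 and 928 and 1056 CPM in those of WT, without overlap. Marker sums of several other classes did not overlap either, in both directions, and others did overlap. Of single genes tested in these cells, 18.4% lay below and 17.8% above WT without overlap. Arterial markers summed to 6525 and 4591 CPM in flt1ka604 and 3146 and 3706 CPM in WT. Venous markers summed to 1311 and 1416 CPM in flt1ka604 and 2482 and 1655 CPM in WT. Basal epidermis markers summed to 337 and 1565 CPM in flt1ka604 and 249 and 300 CPM in WT. Hepatocyte markers summed to 105 and 86.7 CPM in flt1ka604 and 7.54 and 55.4 CPM in WT. Radial glia markers were lower in flt1ka604, at 595 and 470 CPM, than in WT, at 943 and 714 CPM. The part of the subcluster shares and of muscle, periderm and other RNA in the genotype values was not tested.

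**Figure D5:**
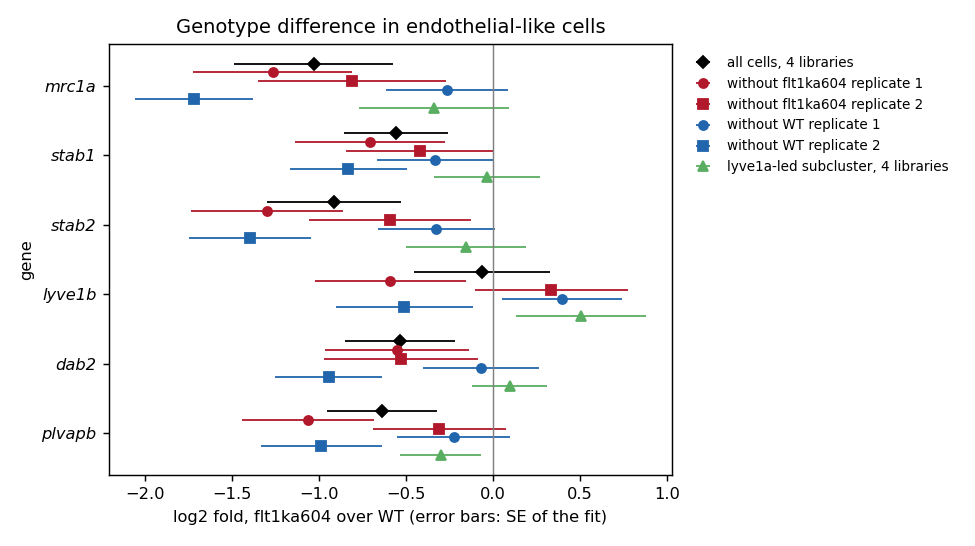
Log2 fold of flt1ka604 over WT in endothelial-like cells (x axis, error bars SE) for the 6 genes tested, with all libraries, without each library in turn, and in lyve1a-led cells alone. mrc1a shifts to -0.27 without WT replicate 1, and lyve1b lies on either side of 0.

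Over the whole trunk, where fewer cells of a type and less RNA per cell cannot be told apart, 0 of 7 genes were called, beside 0.466% of 18036 genes. prox1a was the nearest, with 2.11 and 3.5 CPM in flt1ka604 and 5.87 and 4.55 CPM in WT, which did not overlap (log2 fold -0.85 ± 0.24, adjusted p = 0.198, edgeR). Radial glia-like cells, its main source, numbered 172 and 198 in flt1ka604 and 265 and 442 in WT, and their part in the prox1a value was not tested. Within radial glia-like cells the log2 fold of prox1a was -0.66 ± 0.27 (adjusted p = 0.457, edgeR). lyve1b was the only gene of the set with a positive trunk value, at 2.53 and 2.94 CPM in flt1ka604 and 2.24 and 2.39 CPM in WT (0.27 ± 0.21). stab2 had 2.82 and 3.87 CPM in flt1ka604 and 4.28 and 4.37 CPM in WT (-0.34 ± 0.20). plvapb had 13.2 and 16.2 CPM in flt1ka604 and 17.2 and 19.2 CPM in WT. For mrc1a, stab1, plvapb and dab2 the log2 fold lay between -0.45 and -0.13. The values of prox1a, stab2 and plvapb lay below WT in both flt1ka604 libraries and those of lyve1b above, beside 21.4% of all genes tested that lay below and 16.9% above.

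In other classes a member passed the count filter in 7 cases over 6 classes, and 0 were called by edgeR, with 2 at an unadjusted p under 0.05. stab1 in smooth muscle-like cells had 6.06 and 7.10 CPM in flt1ka604 and 13.6 and 9.39 CPM in WT (log2 fold -0.88 ± 0.34, adjusted p = 0.314, edgeR). dab2 in muscle progenitor-like cells had 4.47 and 5.63 CPM in flt1ka604 and 11.2 and 8.21 CPM in WT (-0.99 ± 0.37, adjusted p = 0.391, edgeR). Of all genes tested, 0.931% were called in smooth muscle-like, 0.405% in muscle progenitor-like and 1.07% in fast muscle-like cells, and 0% in neuron-like, pronephros-like and radial glia-like cells, where 683, 79 and 1020 genes had an unadjusted p under 0.05. Such a p was also common among all genes in smooth muscle-like cells (1273 of 9241) and muscle progenitor-like cells (945 of 8898). The log2 fold of dab2 in pronephros-like cells was -0.15 ± 0.36. In the remaining cases the log2 fold was positive and not called, at 0.39 ± 0.22 for dab2 in fast muscle-like cells, 0.27 ± 0.48 for plvapb in smooth muscle-like cells and 0.20 ± 0.37 for prox1a in neuron-like cells.

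The genes of like role in endothelial-like cells were examined as lists. Of 10 venous genes 9 were higher than in other named cells, in a contrast where 10.2% of 15750 genes were higher and 25.4% lower. The largest folds were those of sele, an adhesion receptor (10.68 ± 0.29), and gpr182, a chemokine-binding receptor (8.94 ± 0.25), while nrp2a, a semaphorin and Vegf co-receptor, differed by -0.15 ± 0.32. All 7 arterial genes tested were higher, from 8.22 ± 0.23 for cldn5b to 2.32 ± 0.28 for hey2, a Notch target. So were all 11 pan-endothelial genes tested, which are among the markers that named the cluster, so that their level was fixed by the naming. The venous and arterial genes were not left out of clustering, and cldn5b and dll4 are among the 10 leading genes of this cluster, so these lists are not independent of it. Between genotypes, where 0.0858% of 3497 genes were called, 0 of 8 venous genes were called in endothelial-like cells. Their median log2 fold was -0.38, with 7 of 8 negative, and that of 7 arterial genes was 0.66, with 7 of 7 positive and 0 called. Over all genes tested the median was -0.00053. The genes of a list were counted in the same few cells, so their signs are not independent. Arterial-like cells were 35.5% and 32.1% of endothelial-like cells in flt1ka604 and 15% and 49.1% in WT. The part of these shares in the folds was not tested. sele had the lowest p of the venous genes named here, at 247 ± 21.8 CPM in flt1ka604 and 616 ± 142 CPM in WT (SD, n = 2 each, log2 fold -1.28 ± 0.29, adjusted p = 0.176, edgeR). Of the paralogues, lyve1a was nearly as restricted to endothelial-like cells as lyve1b (10.30 ± 0.27), and plvapa was also higher there (7.71 ± 0.47). plvapa had 5 UMIs in lyve1a-led cells and 77 in arterial-like cells, a ratio of 0.093 in CPM, beside 2561 and 2407 CPM of plvapb in the same subclusters.

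The genotype effect in endothelial-like cells was also set against that in all other named cells. stab2 was called in this test of the difference, where 0.324% of 15750 genes were (log2 difference -1.88 ± 0.47, adjusted p = 0.0198, edgeR). In the other named cells stab2 had 19 and 28 UMIs in flt1ka604 and 5 and 21 in WT. Of those, 10 and 16 UMIs lay in the smooth muscle-like and the basal epidermis-like cell described above, both from flt1ka604 libraries. These cells were picked for their stab2 counts after seeing the data, so leaving them out could only make the difference smaller. Without them the difference was -0.73 and no longer called. It was also not called without flt1ka604 replicate 2 (-1.20) or without WT replicate 1 (-1.02). The other 6 genes were not called, with mrc1a at -3.80 ± 1.18 (adjusted p = 0.234, edgeR) on 10 UMIs in the other named cells.

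Across the 14 classes with at least 20 cells in every library, the gene most like stab2 and like lyve1b among 17495 others was sele (Pearson r = 0.990 for stab2 and 0.999 for lyve1b, of log2(CPM + 1)), followed by cldn11a for stab2 and notchl for lyve1b. Next for both was ELAPOR1 (0.985 and 0.991), at only 2.25 CPM in endothelial-like cells. All stab2 and lyve1b UMIs of basal epidermis-like cells lay in 1 cell, and how far these ranks rest on it was not tested. For mrc1a it was tek (0.99), the angiopoietin receptor Tie2, ahead of scarf1, itself a scavenger receptor gene, and entpd8. plvapb was closest to bcl6b, rasip1 and ecscr (0.97, 0.96 and 0.96), which are found throughout endothelium. stab1 was closest to slc6a4a, pgfb and bcl3 (0.98, 0.98 and 0.97), genes at between 7.63 and 10.6 CPM in endothelial-like cells. prox1a was closest to irx6a (0.92) and INSM2 (0.91), and dab2 had no close match beyond cryba1b (0.91). Classes are not replicates, and a gene restricted to 1 class will correlate highly with any other of that kind.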

How the data were processed

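Cells of dissected trunks were profiled on the 10x Genomics platform. The labels name 3′ v2 chemistry and the study's methods v3. The deposited counts are whole UMIs per gene and cell, made by the authors with Cell Ranger on GRCz11, and already hold only barcodes with at least 500 UMIs. Cells with over 200 and under 4000 genes and under 5% mitochondrial UMIs were kept, as in the study. Seurat 5.3.0 (R 4.3.3) was used for log-normalization, integration on 30 dimensions, 50 components and a resolution of 0.3. SCTransform was not run. The 7 genes were left out of clustering. No doublets were removed in the main analysis. Clusters were named "-like" from marker lists.

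UMIs were summed per library and class and tested with edgeR 4.0.16 (TMM, filterByExpr, quasi-likelihood F test, two-sided, Benjamini-Hochberg over all genes tested), with the library as a block between classes. The threshold was an adjusted p of 0.05. The SE of a log2 fold was worked back from the fold and its F statistic and is approximate. With 2 libraries per genotype a permutation test cannot reach it. DESeq2 1.42.0, other scalings and cell sets and left-out libraries were alternatives, and Scrublet (scanpy 1.11.5) scored doublets. The scripts were tested on simulated data. CPM is UMIs per 1000000 UMIs of the same cells. Genes named were drawn from the 7, the 3 most like each, and up to 4 per list by largest and smallest fold over other cells, and not every such gene is printed. Others (mrc1b, slc20a1a, lrp2a, cdh17, ctsla) were singled out after their values were seen. The 7 genes and the lists were chosen with earlier results of these data known.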

Additional observations from a re-analysis of the deposited data

Results flagged for a closer look

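For stab2 the genotype effect differed between cell classes by a test of the difference itself. In endothelial-like cells its log2 fold of flt1ka604 over WT was -0.91 ± 0.39 and not called, whereas all other named cells held 0.497 and 0.873 CPM in flt1ka604 and 0.169 and 0.404 CPM in WT. The difference between the effects was -1.88 ± 0.47 on the log2 scale (adjusted p = 0.0198, edgeR interaction term). Other named cells held 19 and 28 stab2 UMIs in flt1ka604 and 5 and 21 in WT. In flt1ka604 10 and 16 of these lay in 2 single cells, 1 per library, that also held 10 and 13 UMIs of pan-endothelial markers. Their Scrublet doublet scores were 0.049 and 0.065, and whether they are mixtures of cells was not tested. These 2 cells were picked for their stab2 counts after seeing the data, so leaving them out could only make the difference smaller. Without these 2 cells the difference was -0.73 and not called.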

How the results depend on the processing

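Of 332 log2 folds under an alternative, 310 kept their direction and their side of the threshold, and of 90 counts of called genes 69 stayed within 1.5 times. In endothelial-like over other named cells 7 of the set were called, and 6 with DESeq2, without the library block or without flt1ka604 replicate 2. No gene of the set was called between genotypes in endothelial-like cells or the whole trunk under any alternative run. Counts over all genes were less stable. In endothelial-like cells 3 genes were called, and 6 with DESeq2, 81 without the count filter, 0 in lyve1a-led cells alone and between 10 and 92 with 1 library left out. In the whole trunk 84 were called, and 626 with DESeq2, 510 with library totals, 175 without the filter and between 3 and 445 with 1 library left out. A replicate block gave 4 genes in endothelial-like cells and 41 in the trunk, with 0 of the set called in either; same-numbered libraries share only a number, and their deviations correlated at -0.185 over 18036 genes. The crossed pairing, added after seeing the data, gave 46 and 112 genes. The test of the difference between classes called 51 genes, and between 19 and 52 with 1 library left out, with between 0 and 1 of the set called, and 0 of the set without the 2 cells rich in stab2. Apart from prox1a in endothelial-like cells, directions turned over only for values that were not called. With 1 library left out, lyve1b in endothelial-like cells lay between -0.59 and 0.39 (0.0073 without the highest doublet scores, 0.51 in lyve1a-led cells, where dab2 was 0.10). Trunk dab2 lay between -0.35 and 0.072, and pronephros-like dab2 lay between -0.58 and 0.20. For prox1a, neuron-like over endothelial-like cells lay between -0.19 and 1.29 (-0.086 with library totals), and endothelial-like over other named cells lay between -0.044 (without flt1ka604 replicate 2) and 1.73, and was 0.85 with DESeq2 and 1.33 without the library block, neither of them called. stab1 in macrophage-like over smooth muscle-like cells lay between -1.01 and 0.65. dab2 in endothelial-like over pronephros-like cells lay between 0.51 and 0.98 and was not called without flt1ka604 replicate 2 or WT replicate 2. Median co-detection was 67.1% thinned and 79.2% unthinned. The cause of these changes was not tested. Leaving out subclusters without endothelial markers removed no cells and gave no value. Depth and the 2 libraries per genotype are limits: endothelial-like cells held between 132545 and 469482 UMIs per library, from between 20 and 53 cells.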

Other observations

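Genes of lysosomal breakdown, the step after uptake, were mostly higher in endothelial-like cells than in the pool of other named cells. For these genes no test against macrophage-like cells alone was run. Of 11 lysosomal genes tested 8 were higher than in other named cells and 1 was lower, with a median log2 fold of 0.86 beside -0.43 over all 15750 genes, of which 10.2% were higher and 25.4% lower. lgmn had 3.37 ± 0.18 and hexb, a hexosaminidase subunit, 2.56 ± 0.19, while the lower gene was ctsl.1 at -10.18 ± 1.88. Within endothelial-like cells, lyve1a-led over arterial-like CPM was 4214 over 906 for the protease ctsla and 564 over 78.4 for hexb, as a description without a test. Of 9 clathrin adaptor genes 4 were higher, among them hip1 at 2.30 ± 0.31 and cltca, the clathrin heavy chain, at 2.15 ± 0.18. Of 7 other scavenger and uptake receptors tested, 1 was higher (scarb2a, 2.41 ± 0.18) and 3 were lower, among them marco at -9.61 ± 2.19. Of 8 lymphatic growth genes tested, 4 were higher and 1 lower, with sox18 at 8.0 ± 0.60, flt4 at 4.91 ± 0.27 and svep1, the lower gene, at -9.45 ± 2.29. None of the genes of these 4 lists was called between flt1ka604 and WT in endothelial-like cells by edgeR, where 0.0858% of 3497 genes were, with 2 lysosomal genes and 0 of the others at an unadjusted p under 0.05.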
